A study of Mus musculus with 6 samples.

Results

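The core spliceosome genes described here are 36 genes for proteins of the U1, U2 and U4/U6.U5 particles, the Sm ring that these particles share, the Prp19 complex and 2 late-acting helicases. They were chosen by name and found through their Ensembl identifiers in a table of 55378 mouse genes, by a rule that uses no measured value, although earlier results of these data were known when the list was drawn up. All 36 had enough counts to be tested, among 15619 genes tested in all.

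The samples were mouse embryos collected as blastocysts on day 5, after zygotes had been microinjected with an siRNA against Eif4a3 (Eif4a3 knockdown) or with a negative control siRNA (NC). Each group held 3 libraries, each from a pool of 5 embryos, so embryos within a pool and the lineages within an embryo cannot be separated. Polyadenylated RNA was read by Smart-seq2, which copies full-length cDNA from its 3′ tail, with paired reads of 150 bases. The labels do not say whether pools of a group came from separate parents, so p-values measure only the spread between these samples.

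The spliceosome assembles anew on each intron. The U1 particle binds the 5′ splice site, U2AF and the U2 particle bind the 3′ splice site and the branch point, and the tri-snRNP then brings in U4, U6 and U5, after which helicases and the Prp19 complex reshape the machine for catalysis. Eif4a3 is the RNA helicase at the centre of the exon junction complex, which spliceosomes leave on spliced mRNA and which marks transcripts with a premature stop codon for nonsense-mediated decay (NMD).

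The 3 knockdown pools had 16.03, 36.2 and 56.2 CPM of Eif4a3 (counts of the gene scaled to the size of the library) in replicates 1, 2 and 3, against 302, 255 and 202 CPM in the NC pools. The groups did not overlap, and the level was 7.01-fold lower in knockdown pools (log2 fold change -2.81, SE 0.44, adjusted p = 0.00512 by edgeR's quasi-likelihood test with Benjamini-Hochberg adjustment, the test behind every adjusted p below). The log2 fold change of Eif4a3 was -2.34 with all exon lines summed and -1.52 with its most counted exon block, so the size of the knockdown depends on how exons are added up, while the call held in all 14 alternatives. Gene-level sums held between 16157719 and 18697754 counts per knockdown library and between 15607227 and 18389986 per NC library. The correlation of log expression between libraries was 0.921 to 0.941 within the knockdown group and 0.938 to 0.965 within NC, against 0.818 to 0.883 between the groups. All 5 trophectoderm and all 4 epiblast markers were detected. Their summed levels were lower in every knockdown pool, at 449 to 2052 against 2075 to 5465 CPM for trophectoderm (outer layer) and 122 to 160 against 349 to 501 CPM for epiblast and inner cell mass. Taken singly, Krt8, Cdx2, Pou5f1 and Nanog overlapped between the groups, while Krt18, Gata3, Eomes, Sox2 and Tdgf1 did not. Tdgf1 had 2.91 to 6.14 CPM in knockdown and 115 to 228 CPM in NC pools. Primitive endoderm markers summed to 54.2 to 71.4 CPM in knockdown and 75.9 to 84.7 CPM in NC pools. Most of this sum came from Gata6, which overlapped, at 52.3 to 67.9 CPM in knockdown and 61.2 to 68.1 CPM in NC pools. Gata4 overlapped too, while Pdgfra and Sox17 were lower in every knockdown pool than in every NC pool. Pdgfra had at most 0.909 CPM in knockdown and at least 6.32 CPM in NC pools. Sox17, at low levels, had at most 0.281 CPM in knockdown and at least 0.591 CPM in NC pools. Cumulus and granulosa cell markers, 4 of 5 of which stayed under 1 CPM in every library, summed to 16.2 to 28.9 CPM in knockdown and 3.78 to 15.6 CPM in NC pools, and blood markers to 3.42 to 6.26 CPM in knockdown and 7.02 to 48.5 CPM in NC pools. Sperm markers reached at most 2.53 CPM in knockdown and 1.59 CPM in NC pools, and fibroblast markers at most 10.7 and 12.7 CPM. The part of any of these shifts in the results below was not tested. In such bulk libraries, fewer cells of a type and less RNA per cell cannot be told apart.

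The knockdown pools had less mRNA for 3 of the 7 tri-snRNP proteins, all 3 of them U5 proteins, and more for the small U2AF subunit. Most core spliceosome genes did not pass the test. Of the 36 genes, 5 fell (Prpf8, Eftud2, Snrnp200, Sf3b3 and Prpf19) and 1 rose (U2af1), with a threshold on the adjusted p of 0.05. That is 13.9% lower and 2.78% higher, where 5.56% of all tested genes were lower and 7.52% higher. The median log2 fold change of the 36 was -0.32, against 0.031 over all tested genes, and 23 were negative and 13 positive. In 11 genes every knockdown pool lay below every NC pool (16.4% of all tested genes did so), in 4 every knockdown pool lay above (20.1% of all), and 21 overlapped. By DESeq2, 6 of the 36 were lower and 2 higher, where 9.54% and 11.7% of all genes were. The groups left 41.7% of the 36 without overlap, against 36.4% of all tested genes. The summed level of all 36 genes was 5441, 6873 and 8025 CPM in knockdown and 5666, 7001 and 7470 CPM in NC replicates 1, 2 and 3, so the total overlapped although its parts shifted.

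**Figure D1:**
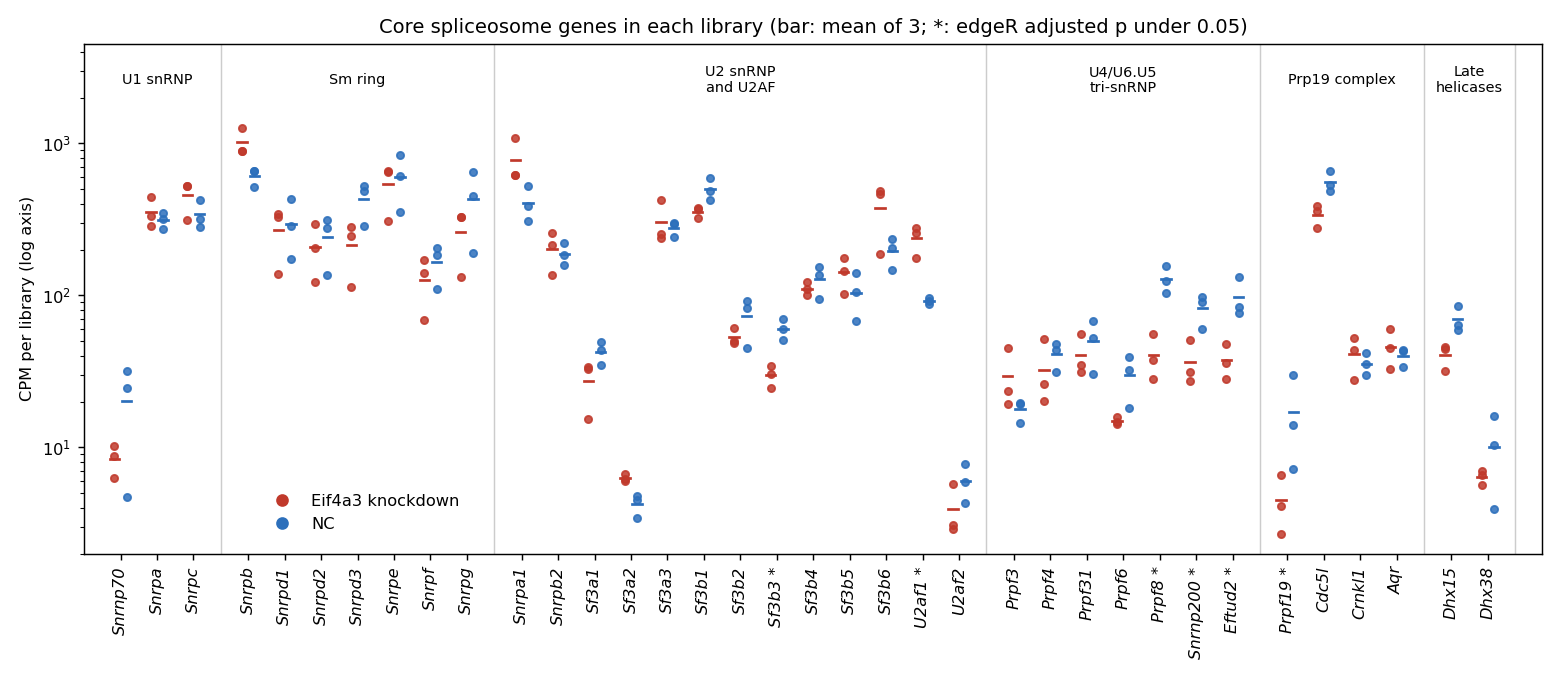
Level of each core spliceosome gene in CPM (log axis) in the 3 Eif4a3 knockdown libraries (red, left) and the 3 NC libraries (blue, right), by subcomplex, with bars at the means. Knockdown points of Prpf8, Snrnp200 and Eftud2 lie below all NC points, and those of U2af1 lie above them.

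Of the 7 tri-snRNP genes, 3 fell (42.9%, against 5.56% of all tested genes). The genes were grouped into 6 subcomplexes, and the split of the tri-snRNP into U5 and U4/U6 proteins was added to these. Of the 4 U5 proteins among the 36 genes, 3 fell, and the median log2 fold change of the 4 was -1.28. All 4 had every knockdown pool below every NC pool, as did 16.4% of all tested genes. These 4 genes have 22 to 42 exon blocks. Of 1914 tested genes with 21 or more blocks, 221 fell and 577 had every knockdown pool below every NC pool. Other U5-associated proteins, outside the 36, overlapped between the groups and did not pass the test. Log2 fold changes were -0.65 for Snrnp40 (adjusted p = 0.241), -0.81 for Txnl4a (0.246), -0.81 for Ddx23 (0.426) and -0.13 for Cd2bp2 (0.874). Snrnp40 overlapped only through knockdown replicate 1, at 229 CPM against 228 CPM in NC replicate 3. Levels of Ddx23 were very low, at 1.08 to 2.35 CPM in knockdown and 1.05 to 4.18 CPM in NC pools. Prpf8, on mouse chromosome 11 (GRCm38 chr11:75486816-75509449, plus strand), encodes the large scaffold protein that holds the RNAs of the catalytic centre. Its level was 37.6, 55.5 and 28.2 CPM in knockdown replicates 1, 2 and 3, and 155, 125 and 103 CPM in NC replicates. Every knockdown pool was well under the lowest NC pool. The fold change was 3.16-fold lower (log2 fold change -1.66, SE 0.33, adjusted p = 0.0121), and the call held in all 14 other ways of processing that were tried, with log2 fold changes of -1.95 to -1.31.

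Eftud2 (chr11:102838473-102880985, minus strand) encodes the GTPase that controls the U5 helicase. It measured 47.8, 35.9 and 28.2 CPM in knockdown pools and 132, 83.2 and 76.1 CPM in NC pools. NC replicate 1 stood highest, and the groups did not overlap. The level was 2.60-fold lower (log2 fold change -1.38, SE 0.33, adjusted p = 0.0240). The adjusted p rose to 0.0789 without knockdown replicate 2, 0.0751 without knockdown replicate 3, 0.0920 without NC replicate 1 and 0.0614 without NC replicate 2. Snrnp200 (chr2:127208386-127240451, plus strand) encodes the helicase that unwinds U4 from U6. Knockdown pools had 27.4, 50.8 and 31.4 CPM and NC pools had 97.9, 91.0 and 60.0 CPM. The nearest pools, knockdown replicate 2 and NC replicate 3, lay closer together than for Prpf8. Its level was 2.27-fold lower (log2 fold change -1.18, SE 0.34, adjusted p = 0.0449), just inside the threshold. The adjusted p was 0.0746 without knockdown replicate 1, 0.121 without knockdown replicate 3, and 0.1195, 0.122 and 0.0531 without NC replicates 1, 2 and 3. It was also above 0.05 with a filter of 5 CPM (0.0502), with all exon lines summed (0.0640) and with the most counted exon block of each gene (0.0877). Prpf6, which bridges the U5 and U4/U6 particles, measured 15.8, 14.7 and 14.3 CPM in knockdown pools and 32.5, 39.3 and 18.2 CPM in NC pools, without overlap. It did not pass the test (log2 fold change -1.01, SE 0.35, adjusted p = 0.0845), with an adjusted p of 0.0380 by DESeq2. Its log2 fold change was -0.43 (adjusted p = 0.526) with the most counted block and -0.81 (0.266) without NC replicate 2.

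Of the 3 U4/U6 proteins none passed the test, all overlapped between the groups, and their median log2 fold change was -0.30. Prpf3, which binds the paired U4 and U6 RNAs with Prpf4, measured 45.4, 23.4 and 19.2 CPM in knockdown pools and 19.6, 19.4 and 14.4 CPM in NC pools (log2 fold change 0.72, SE 0.38, adjusted p = 0.232). Prpf4 had a log2 fold change of -0.33 and Prpf31, which clamps the U4 stem, one of -0.30. Exon blocks that touch exons of another gene made up 61.7% of the exon length of Prpf31, and counts in those blocks cannot be assigned to it alone. Whether the U5 and U4/U6 proteins differed from each other was not tested. Summed over the 7 tri-snRNP genes, the level was 281, 238 and 176 CPM in knockdown pools and 553, 441 and 346 CPM in NC pools, with no overlap.

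**Figure D2:**
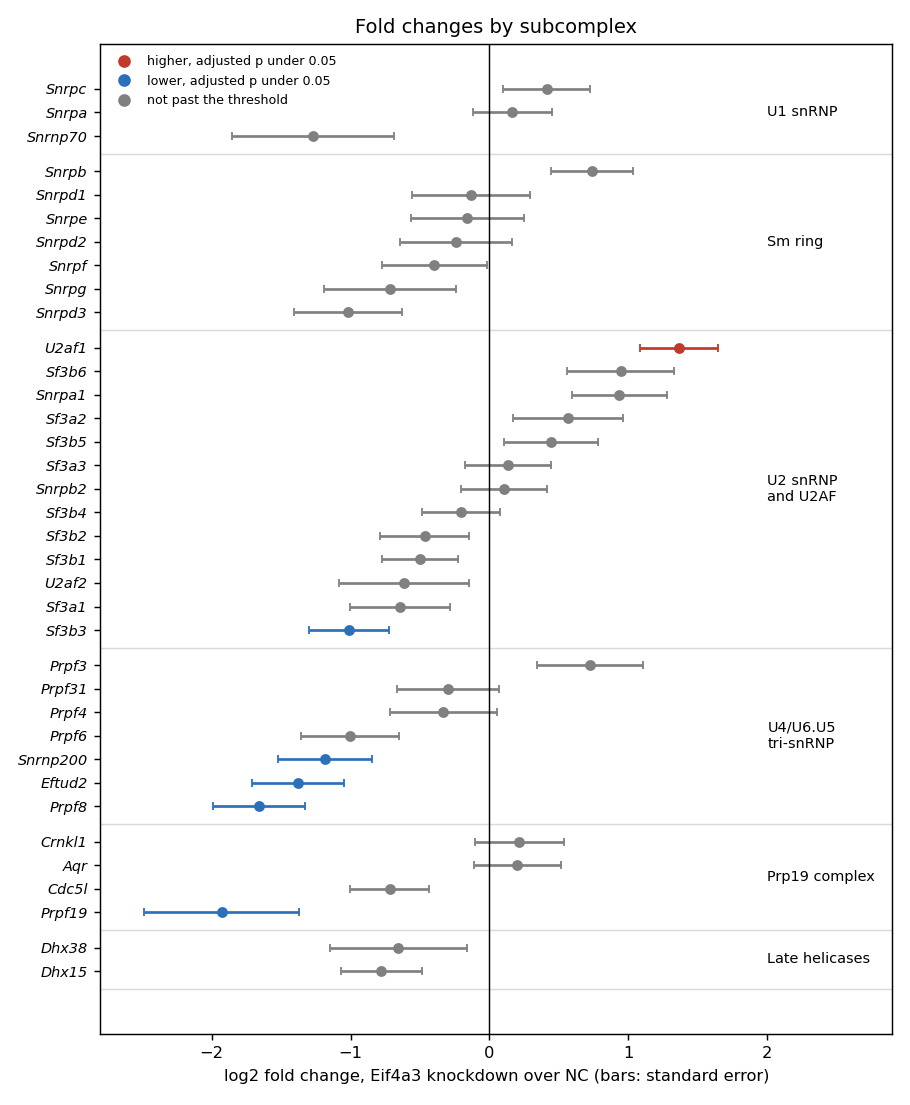
Log2 fold change (Eif4a3 knockdown over NC) with its standard error for each gene, grouped by subcomplex; red and blue points passed the threshold as higher and lower, grey points did not. Prpf8, Eftud2, Snrnp200 and Prpf6 lie between -1.66 and -1.01 and U2af1 is the single red point, at 1.37.

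Signal along the Prpf8, Snrnp200 and Eftud2 mRNAs lay mostly in the 3′ part of the merged exon length in both groups. For Prpf8, 95.9% ± 1.74 of counts in knockdown and 94.2% ± 0.938 in NC (SD, n = 3 each) fell in the 50% of its merged exon length nearest the 3′ end. Each exon block was assigned whole, by its midpoint, so these shares are approximate. Snrnp200 had 92.6% ± 2.38 and 92.0% ± 3.96, and Eftud2 had 85.9% ± 3.35 and 88.1% ± 1.40. The last 5 exon blocks (merged overlapping exons) held 61.4% of the knockdown and 51.5% of the NC signal of Prpf8, 64.3% and 55.5% of that of Snrnp200, and 39.9% and 36.9% of that of Eftud2. In the last 5 blocks of Prpf8, the mean level was 24.8 ± 12.05 CPM in knockdown and 65.7 ± 10.7 CPM in NC, 2.65-fold lower. Over its other 37 blocks it was 15.6 ± 5.55 CPM in knockdown and 61.9 ± 17.8 CPM in NC, 3.96-fold lower, and the knockdown mean was below the NC mean in each of the 37. The last 5 blocks of Snrnp200 overlapped between the groups, at 13.3, 36.7 and 20.5 CPM in knockdown and 46.1, 60.2 and 31.8 CPM in NC pools, with a mean 1.96-fold lower. Its other 37 blocks did not overlap (14.1, 14.1 and 10.9 CPM in knockdown, 51.8, 30.8 and 28.3 CPM in NC) and were 2.84-fold lower. For Eftud2 the last 5 blocks were 2.41-fold lower and the other 21 were 2.74-fold lower, both without overlap. These folds carry no test. No tested block of Prpf8 or Eftud2 passed the threshold for a change in usage relative to its gene. Usage log2 fold changes were -0.83 to 0.40 over the 18 tested of 42 Prpf8 blocks and -0.41 to 0.53 over the 25 tested of 26 Eftud2 blocks.

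**Figure D3:**
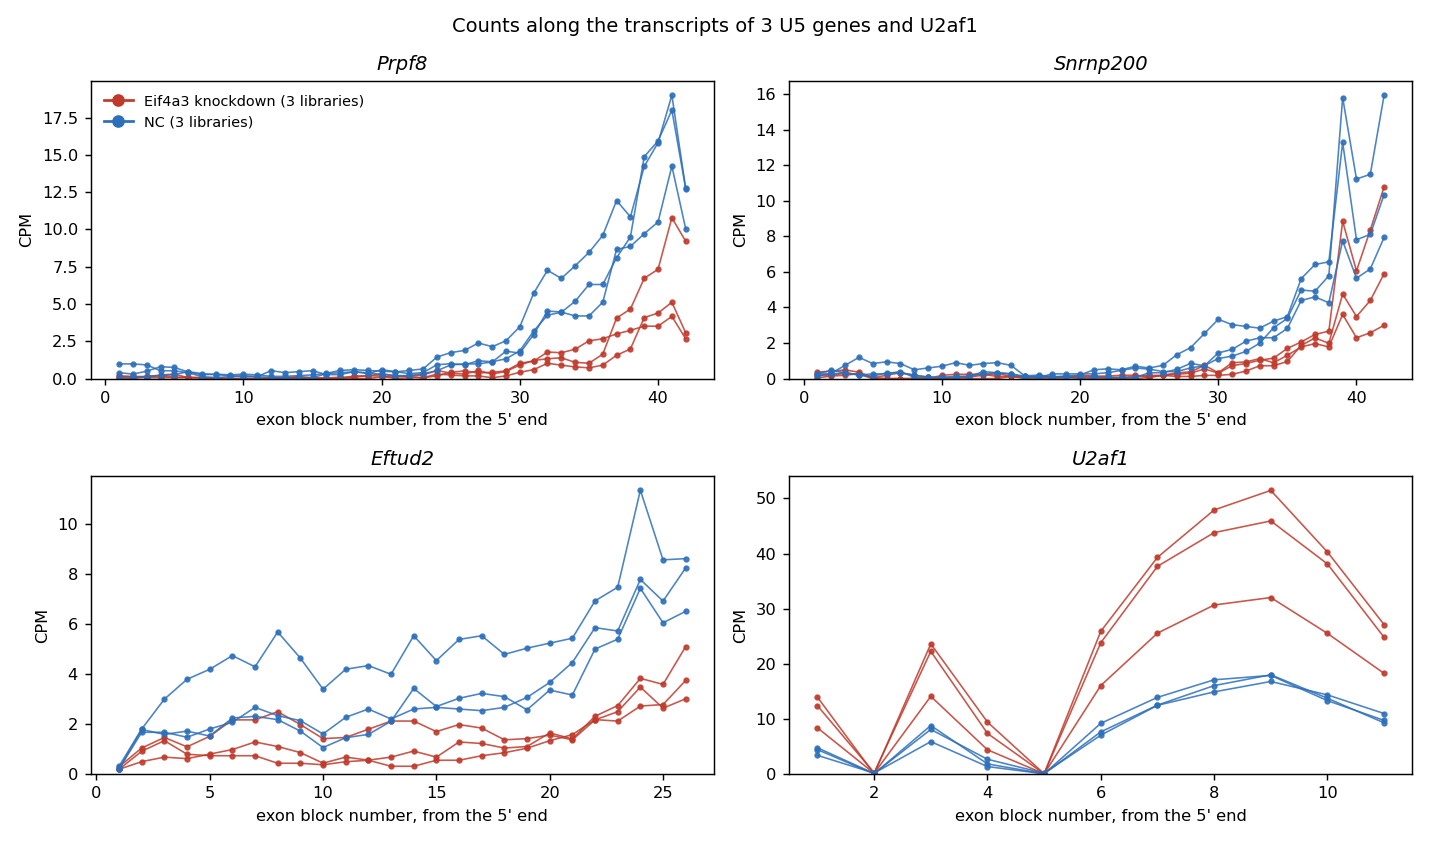
CPM in each exon block, numbered from the 5′ end, for Prpf8, Snrnp200, Eftud2 and U2af1, with 1 line per library (Eif4a3 knockdown red, NC blue). Prpf8 and Snrnp200 rise toward their last blocks in both groups, and the U2af1 lines keep their shape while the knockdown lines lie higher.

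Among the 13 genes of the U2 snRNP and U2AF, 1 rose and 1 fell, and the median log2 fold change was 0.10. That is 7.69% each way, close to the 7.52% higher and 5.56% lower among all tested genes. U2af1 (chr17:31647081-31658892, minus strand) encodes the small U2AF subunit, which contacts the AG at the 3′ splice site. Its level was 175, 256 and 279 CPM in knockdown replicates 1, 2 and 3, against 91.9, 95.9 and 87.7 CPM in NC replicates. The NC pools lay close together and every knockdown pool was far above them. The level was 2.58-fold higher (log2 fold change 1.37, SE 0.28, adjusted p = 0.0136). The adjusted p was 0.0641 without NC replicate 2 and 0.0583 without NC replicate 3, while the log2 fold change stayed between 1.22 and 1.505 in all 14 alternatives. U2af2, the large subunit that binds the polypyrimidine tract, measured 5.76, 3.09 and 2.89 CPM in knockdown pools and 7.81, 4.32 and 5.91 CPM in NC pools (log2 fold change -0.62, SE 0.47, adjusted p = 0.408). The 2 subunits of the U2AF dimer thus had fold changes of opposite sign, of which only that of U2af1 passed the test.

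U2af1 transcripts carry 1 of a pair of alternative 67-base exons, shown here because its main isoforms differ there. Read from GENCODE vM21 transcripts on GRCm38, minus strand, they lie at chr17:31652502-31652568 (nearer the 5′ end) and chr17:31651646-31651712 (nearer the 3′ end). Capitals mark the 23 bases at which they differ; the other 44 (65.7%) are equal.
U2af1 exon nearer the 5′ end: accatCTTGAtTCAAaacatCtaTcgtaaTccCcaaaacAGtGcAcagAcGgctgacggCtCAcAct
U2af1 exon nearer the 3′ end: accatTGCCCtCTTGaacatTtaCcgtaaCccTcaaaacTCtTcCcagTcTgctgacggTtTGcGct
The exon nearer the 5′ end had 93, 121 and 156 counts in knockdown and 50, 27 and 20 in NC pools, and the exon nearer the 3′ end had 342, 393 and 430 in knockdown and 141, 138 and 116 in NC pools. Both exons were more counted in every knockdown pool. The 5′ exon made up 21.4%, 23.5% and 26.6% of the pair in knockdown pools and 26.2%, 16.4% and 14.7% in NC pools, which overlapped (23.8% ± 2.63 against 19.1% ± 6.20, SD, n = 3 each; two-sided exact permutation test p = 0.3, where 0.1 is the smallest value possible). Usage log2 fold changes of the 9 tested U2af1 blocks lay between -0.14 and 0.51, and none passed the threshold.

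The SF3b complex, the part of the U2 particle that grips the branch point, had 1 of 6 genes lower (16.7%, against 5.56% of all tested genes). Sf3b3 (chr8:110810239-110846787, minus strand), a large scaffold subunit, measured 34.5, 30.4 and 24.7 CPM in knockdown pools and 69.8, 60.0 and 50.5 CPM in NC pools. The groups did not overlap, and the level was 2.01-fold lower (log2 fold change -1.01, SE 0.29, adjusted p = 0.0452). Exon blocks that touch exons of another gene made up 58.1% of the exon length of Sf3b3. With those blocks left out, the log2 fold change was -1.03 with an adjusted p of 0.0526. Other settings that ended the call were all exon lines summed (0.0716), the most counted block (0.147), and leaving out knockdown replicate 2 (0.108) or 3 (0.122) or NC replicate 1 (0.139), 2 (0.123) or 3 (0.0688). Sf3b1, the subunit that closes around the branch point adenosine, had 375, 320.5 and 370.2 CPM in knockdown and 426, 485 and 594 CPM in NC pools, without overlap (log2 fold change -0.50, adjusted p = 0.251). Sf3b6, which contacts the branch point region, went the other way without passing the test, at 187, 482 and 463 CPM in knockdown and 147, 235 and 206 CPM in NC pools (log2 fold change 0.94, SE 0.38, adjusted p = 0.129). Knockdown replicate 1 of Sf3b6 lay inside the NC range; without it the log2 fold change was 1.24 with an adjusted p of 0.0248, and without any 1 other library it was 0.73 to 1.04 with adjusted p of 0.207 to 0.321. Sf3b2, Sf3b4 and Sf3b5 overlapped between the groups, with log2 fold changes of -0.47, -0.21 and 0.44.

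The other U2 proteins did not pass the test. Snrpa1, the U2 A′ protein that binds a loop of U2 RNA with Snrpb2, measured 622, 621 and 1082 CPM in knockdown pools and 308, 521 and 389 CPM in NC pools. All knockdown pools lay above all NC pools, with a log2 fold change of 0.93 (SE 0.34, adjusted p = 0.0971; 0.0466 by DESeq2). Snrpb2 overlapped (log2 fold change 0.10). Of the SF3a proteins, which join SF3b to the U2 core, Sf3a2 was higher in every knockdown pool (0.57), Sf3a1 lower in every knockdown pool (-0.64) and Sf3a3 overlapped (0.13), none past the threshold. The summed level of the 13 U2 and U2AF genes was higher in every knockdown pool, at 2272, 2553 and 3049 CPM against 1876, 2157 and 2209 CPM in NC pools. The most abundant genes weigh most in this sum. Of the 13 genes, 7 had positive and 6 negative fold changes.

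None of the 7 Sm genes, whose products form the ring around the U1, U2, U4 and U5 RNAs, passed the test, and their median log2 fold change was -0.24. Snrpb and Snrpd3, which sit side by side in the ring, had fold changes of opposite sign. Snrpb measured 888, 894 and 1257 CPM in knockdown pools and 654, 656 and 514 CPM in NC pools, with every knockdown pool above every NC pool (log2 fold change 0.74, SE 0.29, adjusted p = 0.122). Snrpd3 measured 114, 245 and 283 CPM in knockdown pools and 286, 486 and 527 CPM in NC pools. Every knockdown pool of Snrpd3 was below every NC pool, although knockdown replicate 3 and NC replicate 1 nearly met (log2 fold change -1.02, SE 0.39, adjusted p = 0.1099). With no filter on low counts Snrpd3 passed (adjusted p = 0.0288). The other 5 overlapped, with log2 fold changes of -0.71 for Snrpg, -0.40 for Snrpf, -0.24 for Snrpd2, -0.16 for Snrpe and -0.13 for Snrpd1. Exon blocks that touch exons of another gene made up 85.4% of the exon length of Snrpf. In 6 of the 7 Sm genes replicate 1 was the lowest library of both groups (85.7%), against 22.0% of all tested genes, and Snrpb was the exception. The summed Sm level was 1770, 2797 and 3325 CPM in knockdown replicates 1, 2 and 3 and 1904, 2952 and 3481 CPM in the NC replicates of the same number, so the difference between libraries of a group exceeded that between groups. The tri-snRNP genes had the reverse order, with replicate 1 highest in both groups for 4 of 7, against 19.9% of all tested genes. What the libraries numbered 1 share was not tested.

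Snrpb also held the exon block with the smallest p for a change in usage among all blocks of the 36 genes. In human cells the SmB protein is known to limit its own mRNA through an alternative exon that brings in a premature stop codon. The mouse block has 124 bases (chr2:130176629-130176752, minus strand) and occurs in GENCODE vM21 only in Snrpb transcripts annotated as NMD targets or as non-coding. Its first 58 bases, up to and including the in-frame stop codon in capitals, lie at chr2:130176695-130176752 and are shown because they hold the premature stop codon.
Snrpb exon, coding part: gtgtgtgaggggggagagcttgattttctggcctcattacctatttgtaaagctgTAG
This block had 85, 41 and 84 counts in knockdown replicates 1, 2 and 3, and 16, 9 and 13 counts in NC replicates. As a percentage of the mean of its 2 neighbouring blocks it reached 3.68%, 2.43% and 3.24% in knockdown pools and 1.02%, 0.808% and 1.48% in NC pools. Every knockdown pool was above every NC pool (3.11% ± 0.634 against 1.10% ± 0.341, SD, n = 3 each). A two-sided exact permutation test gave p = 0.1, the smallest value possible with 3 against 3. The block was picked for its usage p in these same libraries, so this separation and its p are not further evidence. In edgeR's exon usage test the block was higher relative to its gene by 1.59 on the log2 scale (unadjusted p = 0.00302), which did not pass adjustment over 67890 blocks (adjusted p = 0.502; 0.368 to 1.0 over 8 alternatives).

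**Figure D4:**
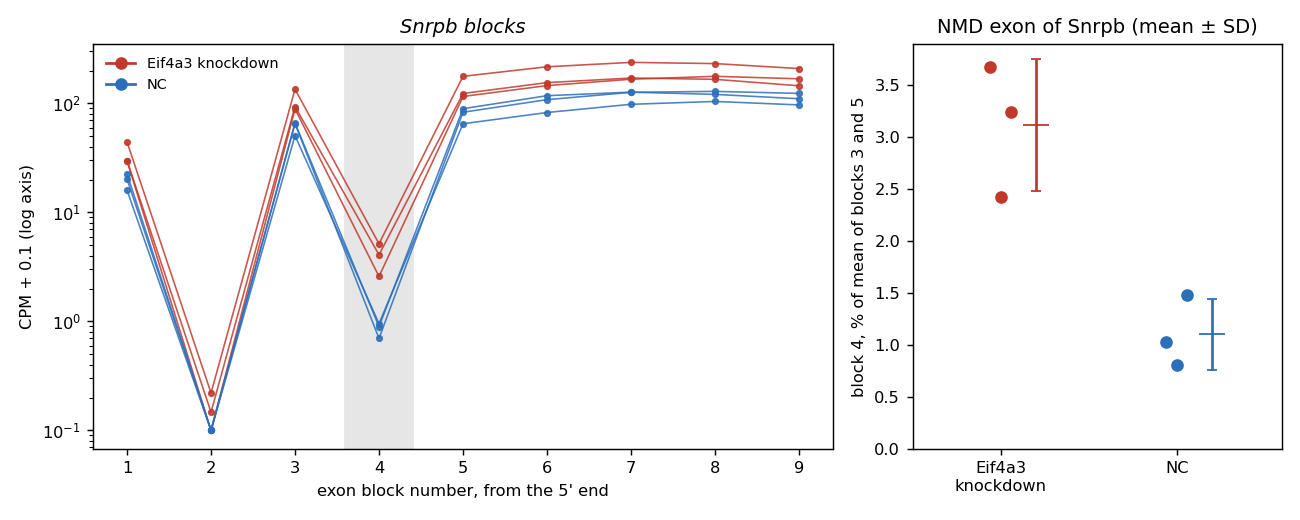
Left, CPM + 0.1 (log axis) in each Snrpb exon block by library, with the exon of NMD transcripts (block 4) shaded; right, block 4 as a percentage of the mean of blocks 3 and 5, with mean and SD, knockdown left of NC. All 3 knockdown pools (2.43% to 3.68%) lie above all 3 NC pools (0.808% to 1.48%), in a block picked for its usage p in these libraries.

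Over all 36 genes, 366 of 513 exon blocks in 34 genes could be tested for usage and none passed the threshold, which 119 of 67890 blocks (0.175%) of all genes did. With no adjustment, 3 of the 366 had p under 0.05, where 2.54% of all blocks did. The second of them was block 30 of Snrnp200, in its coding transcript, with 7, 5 and 3 counts in knockdown and 67, 17 and 22 in NC pools (usage log2 fold change -1.71, unadjusted p = 0.00892, adjusted p = 0.881), at counts too low to read further. The third, named after its values were seen, was block 10 of Cdc5l, found only in a non-coding transcript, with 44, 25 and 16 counts in knockdown and 19, 4 and 22 in NC pools (usage log2 fold change 1.49, unadjusted p = 0.0130, adjusted p = 1.0). Only 2 of the 366 blocks, those of Snrpb and Cdc5l, lie solely in NMD or non-coding transcripts of coding genes, and both had a positive usage fold change. Over all genes, 72.1% of 773 such blocks had one, with a median log2 fold change of 0.42, and 53 (6.86%) passed the threshold, 49 higher and 4 lower. Blocks in protein-coding transcripts had a median of 0.014 over all genes and -0.0045 over the 364 in core spliceosome genes.

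The U1 proteins, which recognise the 5′ splice site, did not pass the test. Snrnp70, the U1 protein that binds stem loop I of U1 RNA, measured 6.33, 8.72 and 10.2 CPM in knockdown pools and 31.7, 24.5 and 4.73 CPM in NC pools. NC replicate 3 lay below every knockdown pool, apart from the other NC libraries (log2 fold change -1.27, SE 0.58, adjusted p = 0.172). Without NC replicate 3 the log2 fold change was -1.76 with an adjusted p of 0.0342, and with no filter on low counts the adjusted p was 0.0287. It was -0.80 (adjusted p = 0.445) without NC replicate 1 and -0.15 (0.870) with the most counted block. Snrpc, which steadies the pairing of U1 with the splice site, had a log2 fold change of 0.41 (adjusted p = 0.415) and Snrpa, which binds the second stem loop, one of 0.16. Exon blocks that touch exons of another gene made up 61.0% of the exon length of Snrpa.

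Of the 4 genes listed here under the Prp19 complex, which stabilises the active spliceosome, 1 fell (25%, against 5.56% of all tested genes). Aqr, a helicase that binds the intron, was grouped with them. Prpf19 (chr19:10895231-10909559, plus strand), its ubiquitin ligase, measured 6.61, 4.12 and 2.71 CPM in knockdown pools and 29.9, 7.17 and 14.1 CPM in NC pools. NC replicate 1 was far above the other NC libraries, and NC replicate 2 was close to knockdown replicate 1. The log2 fold change was -1.93 (SE 0.56, adjusted p = 0.0471), and -1.25 with an adjusted p of 0.185 without NC replicate 1. The call was also lost without knockdown replicate 2 (0.130) or 3 (0.128) or NC replicate 3 (0.0804), with all exon lines summed (0.0624) and with the most counted block (0.103). Cdc5l, a core scaffold of the complex and the most abundant of these 4 genes per length, measured 384, 276 and 358 CPM in knockdown pools and 483, 657 and 535 CPM in NC pools. All knockdown pools of Cdc5l were below all NC pools, but it did not pass the test (log2 fold change -0.72, SE 0.28, adjusted p = 0.1195). Crnkl1 and Aqr, a scaffold protein and a helicase that binds the intron, overlapped, with log2 fold changes of 0.22 and 0.20. That of Crnkl1 turned to -0.027 without knockdown replicate 1. Of the late helicases, Dhx15, which takes the spent intron lariat complex apart, measured 31.6, 45.9 and 44.1 CPM in knockdown and 64.0, 85.4 and 59.1 CPM in NC pools, without overlap (log2 fold change -0.78, SE 0.29, adjusted p = 0.106). Dhx38, which acts between the catalytic steps, overlapped, at 6.98, 6.60 and 5.66 CPM in knockdown and 16.1, 10.3 and 3.94 CPM in NC pools (log2 fold change -0.66, adjusted p = 0.407), and had a log2 fold change of 0.11 from its most counted block.

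Per kilobase of merged exon length, Snrpb and Snrpe, both Sm genes, were the most abundant of the 36 in both groups, while Snrpd3 stood 15th in knockdown and 8th in NC pools. Snrpb had the highest mean in knockdown pools, at 548 ± 114 CPM per kb against 329 ± 44.1 in NC (SD, n = 3 each). Snrpe led in NC pools, at 393 ± 147 CPM per kb in knockdown and 439 ± 178 in NC, and the ranges of Snrpb and Snrpe overlapped in both groups, so their order within a group is not separated by the replicate spread. U2af1 stood 11th in knockdown pools with 91.1 ± 21.05 CPM per kb and 17th in NC pools with 35.3 ± 1.58. Prpf8 stood 23rd in knockdown pools with 5.42 ± 1.86 CPM per kb and 19th in NC pools with 17.1 ± 3.48. The lowest levels per length were 0.615 ± 0.271 CPM per kb in knockdown pools, for Prpf19, and 1.46 ± 0.425 in NC pools, for U2af2.

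Of the 5 lower genes, 4 were among the 8 core spliceosome genes with the most exon blocks, and Prpf19, with 14 blocks, was not. These 8 genes had between 22 and 42 blocks; 4 of them fell (Prpf8, Snrnp200, Eftud2 and Sf3b3), none rose, and their median log2 fold change was -1.01. Of all 1914 tested genes with so many blocks, 11.5% were lower and 3.81% higher, and the median was -0.40. The 12 genes of 11 to 19 blocks had 1 higher and 1 lower and a median of -0.40, where genes of 11 to 20 blocks overall had 5.86% higher, 6.81% lower and a median of -0.09. None of the 16 with 10 blocks or fewer passed, at a median of -0.016 against 0.16 for all such genes. Aqr, with 36 blocks, had a log2 fold change of 0.20, so the pattern did not extend to every long member. The share of counts in the 50% of exon length nearest the 3′ end, with blocks assigned by midpoint, was taken per gene. Among all tested genes of 5 or more blocks, medians were 49.5%, 55.9% and 51.0% in knockdown and 53.6%, 57.1% and 54.8% in NC replicates. The part of exon number or of coverage along the transcript in these fold changes was not tested.

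**Figure D5:**
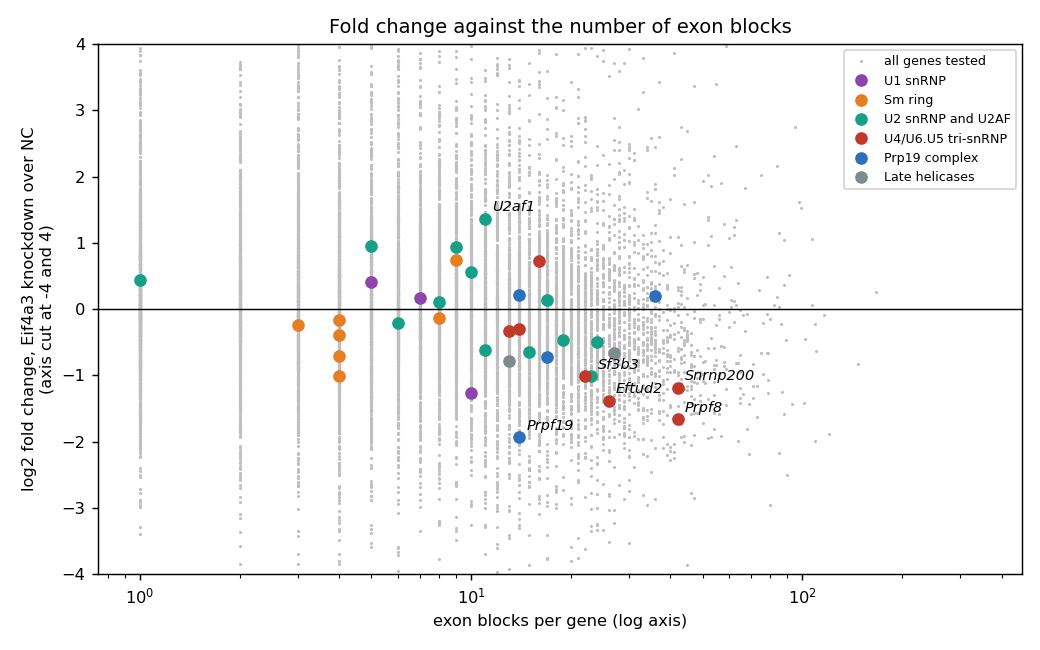
Log2 fold change (Eif4a3 knockdown over NC, axis cut short of the most extreme genes) against the number of exon blocks per gene (log axis) for all tested genes (grey) and the 36 core spliceosome genes (coloured by subcomplex; genes past the threshold are named). Prpf8, Snrnp200, Eftud2 and Sf3b3 lie among genes with over 20 blocks and below 0.

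Outside the core, 102 further genes of the splicing machinery were tested and 3 rose (2.94%, against 7.52% of all tested genes) and 1 fell (0.980%, against 5.56%), with a median log2 fold change of 0.24. Dhx16, a helicase that remodels the spliceosome before the first catalytic step, measured 1112, 1174 and 1512 CPM in knockdown and 248, 404 and 465 CPM in NC pools. This was 3.40-fold higher without overlap (log2 fold change 1.77, SE 0.33, adjusted p = 0.00981), and the call held in all 14 alternatives. Luc7l, a U1-associated protein, measured 95.6, 89.1 and 105 CPM in knockdown and 44.6, 46.7 and 35.0 CPM in NC pools (log2 fold change 1.20, SE 0.27, adjusted p = 0.0186). The call of Luc7l was lost without knockdown replicate 3 (0.0536) or without NC replicate 1 (0.0576), 2 (0.0748) or 3 (0.0769). Slu7, a second-step factor for choosing the 3′ splice site, measured 152, 75.7 and 138 CPM in knockdown and 56.7, 60.5 and 42.6 CPM in NC pools (log2 fold change 1.19, SE 0.33, adjusted p = 0.0401). Leaving out any 1 library other than knockdown replicate 2 ended the call of Slu7 (0.0801 to 0.136), as did summing all exon lines (0.0508). Rbm10, an RNA-binding regulator of exon inclusion, measured 17.2, 7.21 and 9.09 CPM in knockdown and 45.4, 35.1 and 19.2 CPM in NC pools (log2 fold change -1.57, SE 0.44, adjusted p = 0.0428). The call of Rbm10 was lost without knockdown replicate 2 (0.129) or 3 (0.118) or NC replicate 1 (0.140) or 2 (0.118), and its most counted block had a log2 fold change of 0.29.

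By group, none of the 7 LSm genes of the U6 ring passed (median 0.24), nor did any of the 15 other tri-snRNP proteins (median -0.10), the 11 tested proteins of the minor spliceosome (0.30) or the 16 snRNP assembly factors (0.11). The 32 other Prp19, activation and catalytic-step genes had 2 higher (6.25%, against 7.52% of all tested genes) and a median of 0.47, and 24 of them were positive, as were 8002 of all 15619 genes. Among the 21 other U1 and early factors 1 rose and 1 fell (4.76% each, against 7.52% and 5.56% of all tested genes), at a median of -0.33. Differences between the lists were not tested.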

How the data were processed

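Raw counts of read pairs per annotated exon were deposited for 6 libraries. Per the file headers, the authors ran featureCounts on GENCODE vM29 moved to GRCm38, with strand setting 2 and pairs counted in every exon they overlap; pairs with several alignments were not counted. The submitters' processing notes name FastQC 0.11.9, fastp 0.20.1, STAR 2.7.6a, featureCounts 2.0.1, R 4.1.1 and DESeq2 1.34.0. Smart-seq2 does not mark the strand, so pairs of the other orientation are missing and overlapping genes cannot be separated. The table has 842173 lines for 449500 distinct exons. Within each gene, overlapping exons were joined into blocks (291424 in all), each block took the value of its line with most counts, and the blocks were added up; a pair across a junction counts in more than 1 block, so sums exceed numbers of pairs. Symbols were matched for 55102 of 55378 genes.

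Genes kept by filterByExpr were compared with edgeR 4.0.16 (quasi-likelihood test, TMM scaling, two-sided, Benjamini-Hochberg adjustment over all 15619 genes), with all 6 libraries and no covariate. CPM are scaled by the TMM library size. Exon usage was tested with diffSpliceDGE over 67890 blocks. Both were tested on simulated data. DESeq2 1.42.0 was run on the same gene sums as an alternative. Transcript classes and sequences come from GENCODE vM21 (GRCm38). The symbol Cenatac was not matched. Named genes were those past the threshold, up to 2 further members per subcomplex by unadjusted p, and the exon blocks with the 2 smallest p. Sf3b1 and U2af2, given by library, and Snrnp40, Txnl4a, Ddx23 and Cd2bp2 were named outside this rule. The remaining members are given by their fold change. The members and lists were chosen with earlier results of these data known. The replicate numbers of the labels were not taken as pairs (closing section).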

Additional observations from a re-analysis of the deposited data

How the results depend on the processing

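In all 14 alternatives Prpf8 was lower and passed the threshold. The count of core spliceosome genes called lower, 5 in the main analysis, was 7 with no filter on low counts and 6 with DESeq2. It was 2 with all exon lines summed and 2 with the most counted block, and 1 to 4 when any 1 library was left out. The count called higher, 1 in the main analysis, was 2 with DESeq2 and 0 to 2 when any 1 library was left out. Among all genes, 1174 were higher and 869 lower. With no filter on low counts these were 2089 and 1518, and with DESeq2 1829 and 1490. Leaving out 1 library gave 550 to 1224 higher and 336 to 1130 lower. The 3 higher genes of the other splicing lists became 7 with the 5 CPM filter, 8 with the most counted block, 10 with DESeq2 and 1 to 5 without 1 library. The 1 lower gene became 3 with no filter, 0 with the most counted block, 5 with DESeq2 and 0 to 2 without 1 library. No block of a core spliceosome gene passed in any alternative. The direction turned for Crnkl1 without knockdown replicate 1 (-0.027; up to 0.43 without another library), and for Dhx38 (0.11) and Rbm10 (0.29) with the most counted block. With no filter the median of all genes was 0.17, against 0.031 in the main analysis, and the median of the 36 was between -0.40 and -0.16 over all settings. The causes of these changes were not tested.

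With the replicate number as a block, 1331 genes were higher and 1196 lower, and core spliceosome genes had 2 higher (U2af1 and Sf3b6) and 6 lower (Snrpd3 added). In the other lists, 8 were higher and 3 lower under the replicate block. Snrpd3 had an adjusted p of 0.0165 and Sf3b6 of 0.0491 there. Deviations of same-numbered libraries correlated at 0.269, 0.0026 and 0.1002 across genes. The first was the highest of all 9 pairings, and knockdown replicate 1 was negative with NC replicates 2 and 3 (-0.174 and -0.159). Deviations were taken from the mean of each group, so a library cannot be positive with all libraries of the other group. The 9 values are therefore not independent, and these negative values are not further evidence. Knockdown replicate 2 correlated best with NC replicate 3 (0.0764) and knockdown replicate 3 with NC replicate 2 (0.186). As replicates 2 and 3 did not match their own numbers best, the numbers were not taken to pair the samples, which does not exclude pairing.

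Low levels limit Prpf19, Snrnp70, Sf3a2, U2af2 and Dhx38, whose highest library reached 31.7 CPM. The 5′ parts of Prpf8 and Snrnp200 were barely covered, and 147 of 513 exon blocks could not be tested. With 3 libraries per group the exact test cannot go below p = 0.1.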
